A study of Mus musculus with 4 samples.

Results

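The C/EBP family was followed through the bone marrow of 4 mice, from stem cell-like cells to neutrophils and monocytes, by summing the raw counts of its listed genes in each library and cell group. The 6 listed symbols were Cebpa, Cebpb, Cebpd, Cebpe, Cebpg and Cebpz. Of these, 5 are among the features of the deposited matrices, and Cebpd was not analysed here. C/EBP proteins are basic leucine zipper factors that bind DNA as pairs, alone or mixed with one another. C/EBPα is needed in the mouse for stem and multipotent cells to become granulocyte-monocyte progenitors, C/EBPε for late neutrophil maturation and the secondary granules, and C/EBPβ for stress granulopoiesis and for parts of the monocyte line. C/EBPγ lacks a strong activation domain and pairs with other zipper factors, whereas Cebpz, in spite of its name, encodes a CCAAT-box binding protein outside the zipper group, whose yeast counterpart works in ribosome assembly.

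Marrow came from 2 chimeric mice labelled Idh1-R132H and 2 labelled Idh1-WT, with 1 pooled library per mouse. In the Idh1-R132H group a heterozygous mutant allele of Idh1, the cytosolic isocitrate dehydrogenase, and an EYFP reporter had been recombined by tamoxifen over 5 days. After 2 weeks EYFP-positive lineage-negative donor cells were transplanted into fully irradiated hosts with no supporting marrow, and chimeric marrow was taken 16 weeks later. The same 5 days of tamoxifen, 2 weeks and 16 weeks are recorded for the Idh1-WT libraries. The labels do not otherwise describe the Idh1-WT donors separately. All sorted cells of both groups were EYFP-positive, and each library pools 4000 sorted cells of each of 3 populations: CD45.1-positive total cells, lineage-negative cKit-positive (LK) cells and lineage-negative Sca1-positive cKit-positive (LSK) cells. The labels used here name neither the driver of recombination nor the strain, age or sex of the mice. The series title places the question in neutrophil production from myeloid progenitors, and the comparison here asks where each C/EBP gene was expressed along that path and whether its level differed with the Idh1 genotype.

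The libraries held 47025425 and 53387528 unique molecular identifiers (UMIs, each standing for 1 captured transcript) in Idh1-R132H 1 and 2, against 56353466 and 40364701 in Idh1-WT 1 and 2. From these, 3720 and 4269 Idh1-R132H cells and 4035 and 3407 Idh1-WT cells were used. Idh1-R132H 1 and Idh1-WT 1 shared 345 cell barcodes, and 327 of those in Idh1-WT 1 held a median of 2.16% of the UMIs of the same barcode in Idh1-R132H 1. They were removed as copies, and keeping them left the count of called C/EBP tests at 0. The log2 fold change of Idh1 itself, Idh1-R132H over Idh1-WT, was below 0 in 9 of 9 cell groups, from -0.48 to -0.03, and passed in 0. The libraries of the genotypes overlapped in some of them, stem cell-like and monocyte-like cells among these, and all groups share the same libraries. The count does not tell the mutant transcript from the normal one. Gt(ROSA)26Sor, the transcript of the locus often used for reporters, rose in 5 of the 7 groups in which it was tested. The share of cells with a Xist UMI differed between libraries, for instance 51.5% and 42.3% of neutrophil-committed progenitor-like cells in Idh1-R132H 1 and 2 against 77.6% and 58.3% in Idh1-WT 1 and 2. Y-linked UMIs were carried by 33.8% and 38.9% of the same cells in Idh1-R132H 1 and 2 against 6.03% and 19.7% in Idh1-WT 1 and 2, so cells with Xist and cells with Y-linked transcripts were found in every library, in different proportions. The labels nevertheless give 1 mouse per library, and whether a library holds cells of several donors is not given in the sources used here. Xist fell in 1 of 9 groups, monocyte-like cells, with a log2 fold change of -0.55 ± 0.09 and an adjusted p of 1.1e-05 by edgeR's quasi-likelihood test.

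Cells were clustered without the C/EBP genes into 40 clusters, which were named from marker genes where these allowed it. Of the clusters 2 stayed unnamed, and the cluster led by Gngt2 and Ear2 was given no cell type name. The 9 groups of the neutrophil and monocyte lines held 12416 of the 15431 cells: 3402 stem cell-like, 2136 multipotent progenitor-like, 1036 granulocyte-monocyte progenitor-like, 1376 neutrophil-committed progenitor-like, 545 Chil3-led immature neutrophil-like, 738 Mmp8-led immature neutrophil-like, 1201 mature neutrophil-like, 1260 monocyte-committed progenitor-like and 722 monocyte-like cells. The boundary of the granulocyte-monocyte progenitor-like group was the least firm, since 22.5% of its cells took the same name when markers were applied cell by cell, against 95.3% of neutrophil-committed progenitor-like cells. Other early groups were also loosely bounded, at 34.9% for stem cell-like, 52.8% for multipotent progenitor-like and 59.5% for monocyte-committed progenitor-like cells. The remaining groups kept from 67.9% to 93.6%. Summed counts cannot tell fewer expressing cells from less RNA per cell.

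The 5 genes lie on 4 chromosomes of GRCm38, with coordinates from GENCODE vM21. Cebpa (ENSMUSG00000034957) spans chr7:35119293-35121928 on the plus strand, and Cebpg (ENSMUSG00000056216) spans chr7:35046422-35056573 on the minus strand, 62719 bases away. Cebpb (ENSMUSG00000056501) has 1 exon and spans chr2:167688915-167690418 on the plus strand. Cebpe (ENSMUSG00000052435) has 2 exons and spans chr14:54710360-54712174 on the minus strand. Cebpz (ENSMUSG00000024081) spans chr17:78919006-78937066 on the minus strand. Whether counting used the strand is not given in the sources used here, which matters most for Cebpz, because its 3′ end overlaps the opposite-strand gene Cebpzos over 1301 bases. Cebpb overlaps the opposite-strand gene Tmem189 over 908 bases at its 5′ end.

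The RefSeq promoter table (GRCm38.p6) holds 3 of the 5 genes, and the 250 bases before each start are printed because Cebpa and Cebpg are neighbours with unlike patterns of expression and Cebpb is the member that differed most between libraries. The motif TTGCG, the core of the C/EBP site, searched on both strands, is in capitals. The windows are chr7:35119043-35119292 (plus strand) for Cebpa, chr2:167688665-167688914 (plus strand) for Cebpb and chr7:35056567-35056816 (minus strand) for Cebpg.
Cebpa: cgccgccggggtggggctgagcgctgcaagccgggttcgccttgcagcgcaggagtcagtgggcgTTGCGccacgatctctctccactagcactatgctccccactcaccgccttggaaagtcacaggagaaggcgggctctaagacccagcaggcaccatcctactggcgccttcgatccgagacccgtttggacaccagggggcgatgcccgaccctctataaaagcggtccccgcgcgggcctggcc
Cebpb: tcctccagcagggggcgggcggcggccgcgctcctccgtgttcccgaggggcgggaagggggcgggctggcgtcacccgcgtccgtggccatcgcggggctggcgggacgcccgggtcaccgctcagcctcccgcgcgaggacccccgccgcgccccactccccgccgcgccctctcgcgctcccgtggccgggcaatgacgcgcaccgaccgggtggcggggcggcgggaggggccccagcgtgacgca
Cebpg: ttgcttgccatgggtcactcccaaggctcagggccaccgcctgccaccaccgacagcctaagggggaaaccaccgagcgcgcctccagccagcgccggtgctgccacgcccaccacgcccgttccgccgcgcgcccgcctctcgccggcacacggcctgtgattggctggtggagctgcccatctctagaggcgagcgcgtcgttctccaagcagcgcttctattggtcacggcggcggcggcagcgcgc
The core occurs 1 time in the Cebpa window, starting 185 bases before the gene, and in 14.5% of all 32851 promoters of that length. It was not found in the Cebpb or Cebpg windows, where only these letters were searched. The complete palindrome TTGCGCAA, which includes the core, was found in none of the 3 windows and in 0.164% of all promoters. The CCAAT box, also searched on both strands, occurs 2 times in the Cebpg window and in 33.8% of all promoters. The G and C content was 66.4% for Cebpa, 81.6% for Cebpb and 70.8% for Cebpg. These are descriptions of the letters, and no binding was measured.

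Levels below are CPM, that is UMIs of the gene per 1000000 UMIs of the same library and cell group. The 5 genes reached their highest levels of the 2 lines in 5 different groups: Cebpa in granulocyte-monocyte progenitor-like, Cebpe in Chil3-led immature neutrophil-like, Cebpb in mature neutrophil-like, Cebpg in monocyte-like and Cebpz in stem cell-like cells. The groups were built from the cells' other genes, so their order is a description without a test. Levels of different genes are not compared with each other here.

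**Figure D1:**
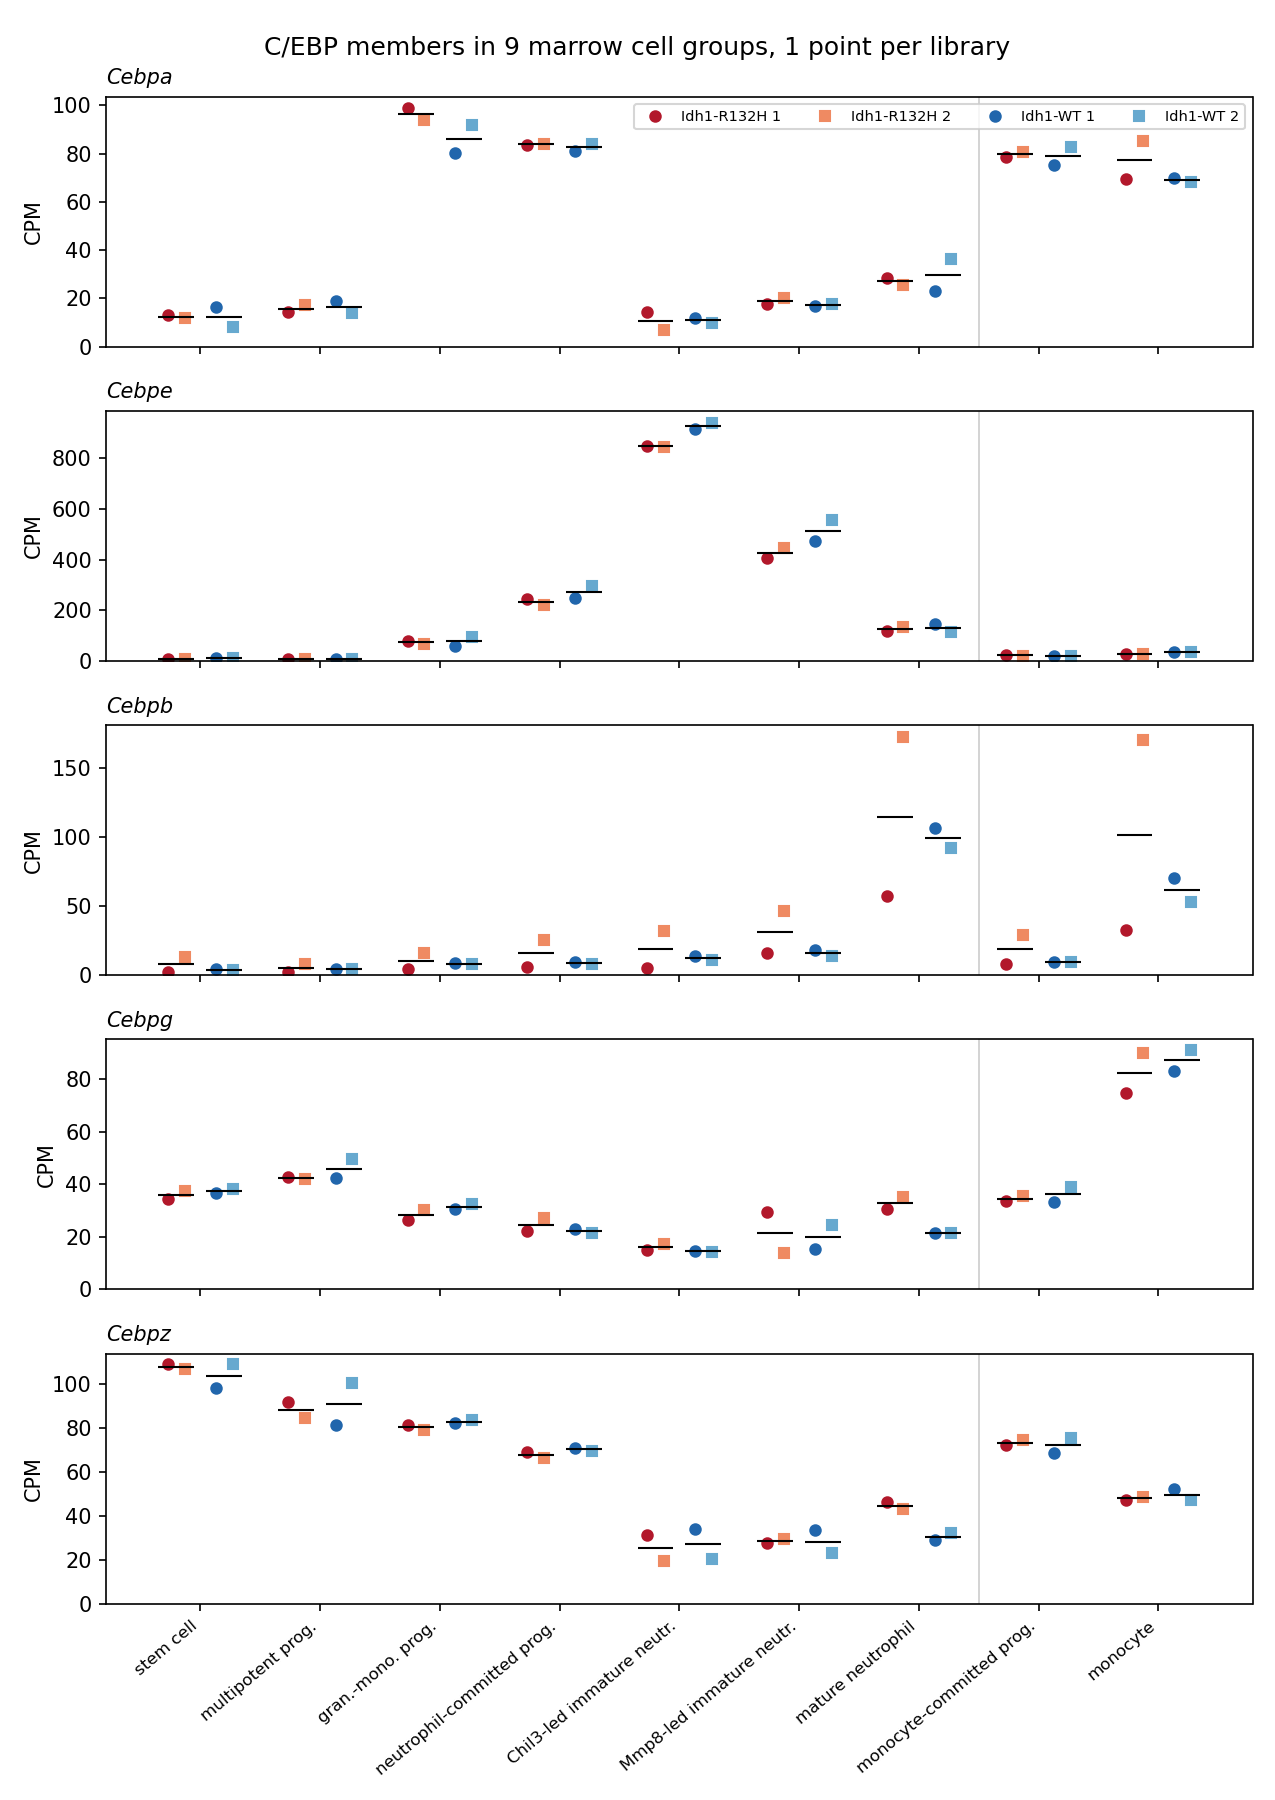
CPM of each member (vertical axes, starting at 0) in 9 cell groups, each of them a marker-named "-like" group, with 1 point per library, Idh1-R132H left of Idh1-WT, black bars for the genotype mean (n = 2 each) and the 2 monocyte groups right of the vertical line. Cebpa is highest in 4 progenitor and monocyte groups, Cebpe in Chil3-led immature neutrophil-like cells, and the Idh1-R132H 2 library (orange squares) is highest for Cebpb in all 9 groups.

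Cebpa, the family member that opens the myeloid path, was low in stem cell-like cells, averaging 12.4 ± 0.66 CPM in Idh1-R132H and 12.4 ± 5.78 CPM in Idh1-WT libraries (SD, n = 2 each). In granulocyte-monocyte progenitor-like cells it stood at 99.0 and 93.9 CPM in Idh1-R132H 1 and 2, against 80.1 and 92.0 CPM in Idh1-WT 1 and 2. Every library was thus far higher in these progenitors than in stem cell-like cells. Neutrophil-committed progenitor-like cells had 83.6 and 84.1 CPM in Idh1-R132H 1 and 2, against 81.2 and 84.0 CPM in Idh1-WT 1 and 2. Multipotent progenitor-like cells lay between 13.9 and 18.9 CPM over the 4 libraries, close to stem cell-like cells as a whole. Within the stem cell-like group, the 794 cells led by Sult1a1 and Pdzk1ip1 had 6.26 CPM (5.35 to 8.26 over the libraries). Its other clusters had 14.0 to 15.4 CPM, and the library ranges of some of these overlapped with it.

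Past the committed progenitors Cebpa parted between the lines. It averaged 10.7 ± 3.13 CPM in Chil3-led immature neutrophil-like cells, 18.0 ± 1.45 CPM in Mmp8-led immature neutrophil-like cells and 28.3 ± 5.84 CPM in mature neutrophil-like cells (SD, n = 4 libraries). In the monocyte line it stayed near its progenitor level, with 79.4 ± 3.09 CPM in monocyte-committed progenitor-like cells and 73.1 ± 7.95 CPM in monocyte-like cells. The ranges of the 4 groups above 70 CPM overlapped one another in the order of their means. The granulocyte-monocyte progenitor-like level joins 2 clusters. The 581 cells led by Cpa3, a mast cell and basophil protease gene, and Ccl9 had 102 CPM (90.4 to 113 over the libraries), and the 455 cells led by Ly6c2, Elane and Mpo had 82.0 CPM (73.1 to 98.2). The level of the Elane and Mpo cluster lies among the 80.3 to 86.3 CPM of the neutrophil-committed clusters, so the peak in this group rests on the Cpa3-led cluster. The highest level of any named group lay outside both lines, in basophil or mast progenitor-like cells, at 174 and 193 CPM in Idh1-R132H 1 and 2 against 161 and 136 CPM in Idh1-WT 1 and 2.

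Cebpe, the factor of late neutrophil maturation, had its peak later than Cebpa. It averaged 9.15 ± 0.51 CPM in stem cell-like cells, 75.1 ± 15.8 CPM in granulocyte-monocyte progenitor-like cells and 252 ± 31.8 CPM in neutrophil-committed progenitor-like cells (SD, n = 4 libraries). In Chil3-led immature neutrophil-like cells it reached 851 and 847 CPM in Idh1-R132H 1 and 2, against 915 and 942 CPM in Idh1-WT 1 and 2. Every library was at its highest there, and the level was lower in each later step. Mmp8-led immature neutrophil-like cells had 406 and 447 CPM in Idh1-R132H 1 and 2 against 472 and 555 CPM in Idh1-WT 1 and 2, and mature neutrophil-like cells had 119 and 134 CPM in Idh1-R132H 1 and 2 against 145 and 115 CPM in Idh1-WT 1 and 2.

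Cebpe was far lower on the monocyte side, at 21.1 ± 0.75 CPM in monocyte-committed progenitor-like and 30.5 ± 4.72 CPM in monocyte-like cells (SD, n = 4 libraries). Free RNA in droplets without cells held 112 to 124 CPM of Cebpe, and by its estimated amount would give 9.49 to 10.5 CPM in mature B-like cells, where 12.9 CPM were measured, so low levels of Cebpe in small cells are near background. The same estimate is 0.85 to 1.08 CPM in monocyte-committed progenitor-like and 1.87 to 2.23 CPM in Chil3-led immature neutrophil-like cells. When each cell was thinned to 1000 UMIs, the share of cells with a Cebpe UMI had a median over libraries of 0.80% in stem cell-like cells, 22.2% in neutrophil-committed progenitor-like cells and 52.3% in Chil3-led immature neutrophil-like cells, against 1.40% in mature B-like cells. Without thinning those shares ran from 5.47% to 6.89%, from 93.6% to 96.3% and from 93.8% to 97.1%, against 1.38% to 3.64% in mature B-like cells. Median depths were 6012, 21621 and 9032 UMIs per cell in these groups and 1678 in mature B-like cells. Free RNA makes up more of the RNA of the small mature B-like cells, so their share is not the background of the other groups. For stem cell-like cells the free RNA estimate was 2.46 to 3.22 CPM of the 9.15 CPM measured.

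Cebpb, the member linked to stress granulopoiesis and to monocytes, was low in all progenitors and high at the ends of both lines. Its mean lay between 4.74 and 23.6 CPM from stem cell-like to Mmp8-led immature neutrophil-like cells. In mature neutrophil-like cells it had 57.1 and 173 CPM in Idh1-R132H 1 and 2, against 106 and 91.9 CPM in Idh1-WT 1 and 2. In monocyte-like cells it had 32.9 and 171 CPM in Idh1-R132H 1 and 2, against 70.7 and 52.9 CPM in Idh1-WT 1 and 2. In both, the 2 Idh1-R132H libraries lay on either side of the 2 Idh1-WT libraries. Each library was higher in monocyte-like cells than in monocyte-committed progenitor-like cells, where the values were 8.21 and 29.3 CPM in Idh1-R132H 1 and 2 against 9.55 and 9.83 CPM in Idh1-WT 1 and 2.

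Cebpg, the partner without a strong activation domain, had 36.8 ± 1.77 CPM in stem cell-like and 44.2 ± 3.64 CPM in multipotent progenitor-like cells (SD, n = 4 libraries). Its lowest mean was in Chil3-led immature neutrophil-like cells, at 15.2 and 17.4 CPM in Idh1-R132H 1 and 2 against 14.8 and 14.2 CPM in Idh1-WT 1 and 2. It was highest in monocyte-like cells, at 74.8 and 90.0 CPM in Idh1-R132H 1 and 2 against 83.2 and 91.4 CPM in Idh1-WT 1 and 2. Of the 9 groups, monocyte-like cells were the highest in all 4 libraries, whereas the low end varied, Idh1-R132H 2 being lower in Mmp8-led immature neutrophil-like cells at 13.9 CPM. Its neighbour Cebpa was also low in Chil3-led cells, but high in neutrophil-committed progenitor-like cells, where Cebpg was at 23.5 ± 2.55 CPM.

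Cebpz, the CCAAT-box binding protein, was highest at the start of the neutrophil line. It averaged 106 ± 5.19 CPM in stem cell-like, 89.4 ± 8.42 CPM in multipotent progenitor-like, 81.4 ± 1.81 CPM in granulocyte-monocyte progenitor-like and 68.9 ± 2.01 CPM in neutrophil-committed progenitor-like cells (SD, n = 4 libraries). The 3 neutrophil groups followed at 26.2 ± 7.43, 28.3 ± 4.45 and 37.6 ± 8.38 CPM. Its highest mean was in erythroid progenitor-like cells, at 112 ± 4.00 CPM, whose range overlapped that of stem cell-like cells. The overlapping gene Cebpzos had 61.6 ± 1.71 CPM in stem cell-like and 23.1 ± 4.17 CPM in Chil3-led immature neutrophil-like cells, and reads of these genes may not be told apart where they overlap.

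**Figure D2:**
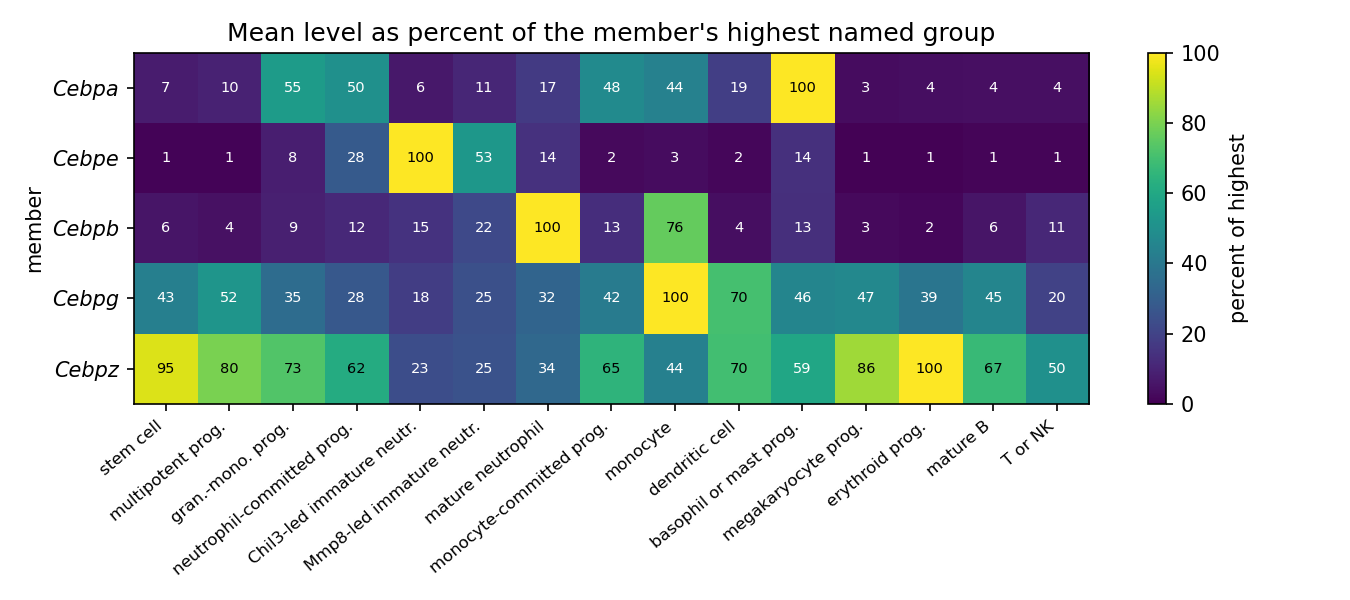
Mean level over 4 libraries in 15 named "-like" groups (horizontal axis), as percent of each member's own highest group (color and printed number, vertical axis by member). Cebpa stands at 55% of its basophil or mast progenitor level in granulocyte-monocyte progenitors, and Cebpe at 28% of its Chil3-led peak in neutrophil-committed progenitors.

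Across the 15 named groups the members' mean levels on the log2(CPM + 1) scale ran together or apart only as far as these points show, since all groups share the same 4 libraries. The correlation was -0.80 between Cebpe and Cebpz, -0.72 between Cebpb and Cebpz, 0.55 between Cebpb and Cebpe and 0.39 between Cebpa and Cebpe. Among 7395 genes with at least 20 CPM in a group, the patterns most like Cebpa were those of Ccl9 (Pearson r = 0.91), Papss2 (0.90) and Plac8 (0.87). The nearest to Cebpe were Ltb4r1, a leukotriene B4 receptor (0.92), Ncam1 (0.91) and Dgat2 (0.90). The nearest to Cebpb were Fosl2, an AP-1 factor (0.93), Dnm2 (0.91) and Fis1 (0.91). Qk (0.94), Fam174a (0.91) and Zfp385a (0.89) were nearest to Cebpg, and Vegfb (0.98), Telo2 (0.97) and Tefm (0.97) to Cebpz. These r values describe 15 groups and carry no test.

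The genotypes were compared in each group with edgeR's quasi-likelihood test on the summed counts, with Benjamini-Hochberg adjustment over all genes of the group and a threshold of 0.05. Of the 45 tests of 5 members in 9 groups, 0 passed, with a smallest adjusted p of 0.288, and 4 had an unadjusted p under 0.05. DESeq2 also called 0, of the 40 tests for which it gave an adjusted p. Among all genes tested by edgeR, 614 of 11007 had an unadjusted p under 0.05 in stem cell-like and 642 of 10914 in multipotent progenitor-like cells. The counts were 744 of 9706 in granulocyte-monocyte and 1072 of 10121 in neutrophil-committed progenitor-like cells. Along the neutrophil groups they were 346 of 5549 (Chil3-led), 173 of 3371 (Mmp8-led) and 230 of 3166 (mature). Monocyte-committed progenitor-like cells had 759 of 10118 and monocyte-like cells 456 of 6840. Over all genes tested, the called share was 0.0818% in stem cell-like, 0.0367% in multipotent progenitor-like, 0.268% in granulocyte-monocyte progenitor-like, 0.82% in neutrophil-committed progenitor-like, 0.198% in Chil3-led immature neutrophil-like, 0.297% in Mmp8-led immature neutrophil-like, 0.316% in mature neutrophil-like, 0.089% in monocyte-committed progenitor-like and 0.57% in monocyte-like cells. A count of 0 among 5 members is therefore no departure from the background. The members' log2 fold changes, Idh1-R132H over Idh1-WT, were above 0 in 23 tests and below 0 in 22.

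The CPM ranges of the genotypes did not overlap in 13 of the 45 tests. This held for 1 of 5 members in stem cell-like cells (34.0% of all genes tested), 0 in multipotent progenitor-like (35.6%), 3 in granulocyte-monocyte progenitor-like (37.5%), 2 in neutrophil-committed progenitor-like (41.5%), 2 in Chil3-led immature neutrophil-like (34.8%), 2 in Mmp8-led immature neutrophil-like (34.6%), 2 in mature neutrophil-like (35.2%), 0 in monocyte-committed progenitor-like (38.9%) and 1 in monocyte-like cells (35.0%). The 3 in granulocyte-monocyte progenitor-like cells were Cebpa, higher in both Idh1-R132H libraries, and Cebpg and Cebpz, lower in both, where 20.1% of all genes lay lower.

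**Figure D3:**
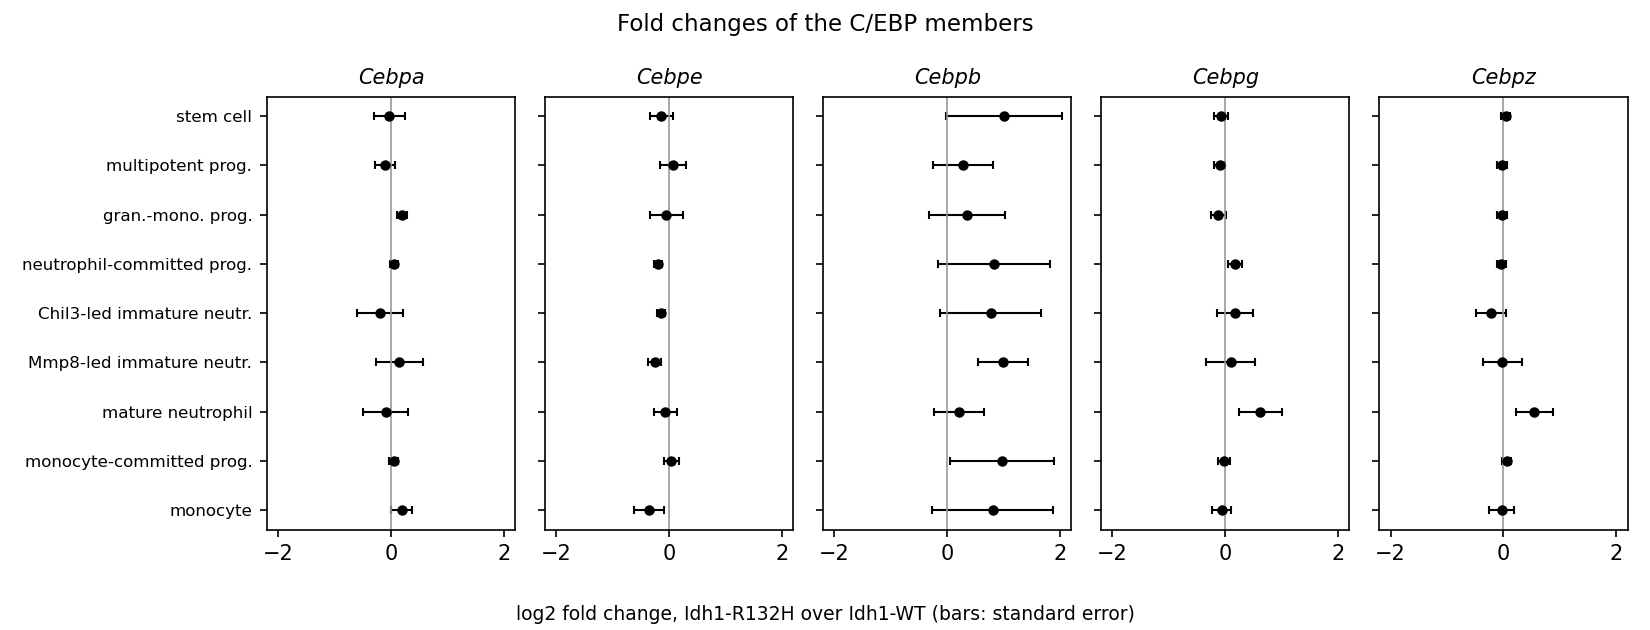
Log2 fold change of Idh1-R132H over Idh1-WT (horizontal axes) with its standard error (bars) for each member in the 9 "-like" cell groups (vertical axis), fitted on 2 libraries per genotype. The Cebpb values are all above 0 with wide bars. The Cebpe values lie below 0 in 7 of the 9 groups, the 3 middle neutrophil groups among them.

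Cebpe came closest to a difference. In neutrophil-committed progenitor-like cells it had 245 and 219 CPM in Idh1-R132H 1 and 2, against 249 and 296 CPM in Idh1-WT 1 and 2. Both Idh1-R132H libraries were below both Idh1-WT libraries, though Idh1-R132H 1 and Idh1-WT 1 lay close together. The log2 fold change was -0.20 ± 0.07 (SE), with an unadjusted p of 0.0136 and an adjusted p of 0.288 by edgeR. Leaving out Idh1-R132H 1 gave -0.27, leaving out Idh1-WT 1 gave -0.32 and leaving out Idh1-WT 2 gave -0.09. Such fits leave a single library in a genotype, which is assumed to vary like those of the other genotype. Of the alternatives that kept all libraries, only the fit without a filter on low counts called Cebpe in these cells. Over all 19 alternatives, the fit without Idh1-R132H 2 among them, the log2 fold change ran from -0.32 to -0.09. Within Xist-carrying cells alone the log2 fold change was -0.19 with an adjusted p of 0.363, beside the difference in Xist-carrying share given above.

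The next steps of the neutrophil line had values of the same sign for Cebpe that did not pass. The log2 fold change was -0.14 ± 0.07 in Chil3-led immature neutrophil-like cells (adjusted p = 0.793) and -0.26 ± 0.12 in Mmp8-led immature neutrophil-like cells (adjusted p = 0.92), by edgeR. In both groups, as printed above, the 2 Idh1-R132H libraries were below the 2 Idh1-WT libraries. In mature neutrophil-like cells the libraries overlapped, with a log2 fold change of -0.07 ± 0.20, and in granulocyte-monocyte progenitor-like cells it was -0.05 ± 0.29. Monocyte-like cells had 25.8 and 27.1 CPM in Idh1-R132H 1 and 2, against 35.4 and 33.7 CPM in Idh1-WT 1 and 2, with a log2 fold change of -0.36 ± 0.27. Cebpe lay below Idh1-WT without overlap in 5 of its 9 groups. Over all genes tested, the Idh1-R132H range lay below the Idh1-WT range in 14.9% of genes in stem cell-like, 23.9% in neutrophil-committed progenitor-like, 16.5% in Chil3-led, 17.2% in Mmp8-led immature neutrophil-like and 18.7% in monocyte-like cells, the 5 groups concerned, and these groups share libraries.

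For Cebpa the values gave no called difference in any of 9 groups, with log2 fold changes from -0.19 to 0.19. The granulocyte-monocyte progenitor-like value was 0.19 ± 0.09, with an unadjusted p of 0.0395 and an adjusted p of 0.623 by edgeR. In neutrophil-committed progenitor-like cells, where its depth was greatest at 2518 UMIs, the value was 0.05 ± 0.07, and its 95% interval ran from -0.09 to 0.18. A change of Cebpa by more than about that much was thus outside the interval in these cells. In Chil3-led immature neutrophil-like cells, with 53 UMIs, the value was -0.19 ± 0.41, and a change of that size was not detectable at this depth.

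Cebpg and Cebpz had no called difference either. Their fold changes had opposite signs in 5 of the 9 groups, and in mature neutrophil-like cells both were higher in each Idh1-R132H library. There Cebpg had 30.7 and 35.4 CPM in Idh1-R132H 1 and 2 against 21.3 and 21.4 CPM in Idh1-WT 1 and 2, a log2 fold change of 0.62 ± 0.38 with an adjusted p of 0.856 by edgeR. Cebpz averaged 44.7 ± 2.03 CPM in Idh1-R132H and 30.5 ± 2.23 CPM in Idh1-WT libraries (SD, n = 2 each), a log2 fold change of 0.55 ± 0.33 with an adjusted p of 0.826 by edgeR. The groups did not overlap for either gene, but the sums were only 56 and 77 UMIs, and CPM ranges of the genotypes did not overlap for 35.2% of all genes tested in these cells.

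Cebpb showed the widest gap between libraries, and it was a gap within the Idh1-R132H group. In neutrophil-committed progenitor-like cells it had 6.10 and 25.4 CPM in Idh1-R132H 1 and 2, against 9.83 and 8.33 CPM in Idh1-WT 1 and 2. In stem cell-like cells it had 2.54 and 13.5 CPM in Idh1-R132H 1 and 2, against 4.24 and 3.77 CPM in Idh1-WT 1 and 2. Idh1-R132H 2 was the highest of the 4 libraries in 9 of 9 groups and Idh1-R132H 1 the lowest in 8 of 9, the exception being Mmp8-led immature neutrophil-like cells. Idh1-R132H 2 exceeded Idh1-R132H 1 by 2.96 to 6.39 times over the groups, whereas Idh1-WT 2 was at 0.75 to 1.04 times Idh1-WT 1.

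**Figure D4:**
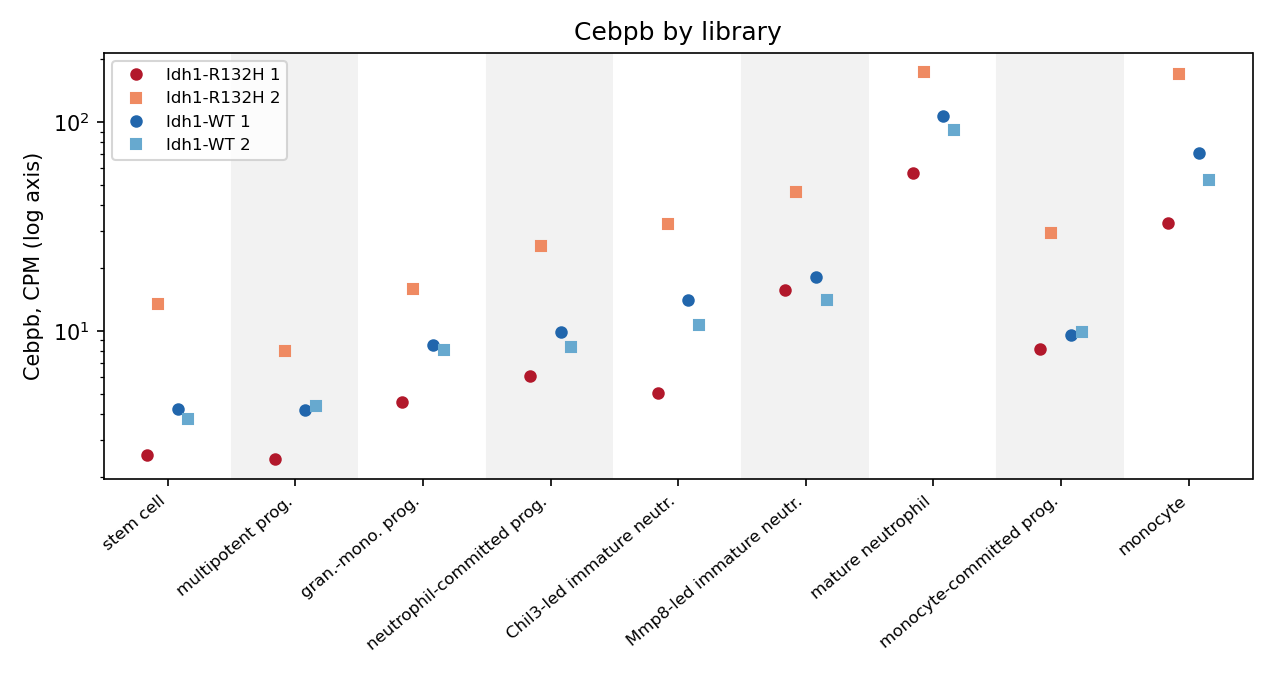
Cebpb CPM on a log axis (vertical) in the 9 "-like" cell groups (horizontal), 1 point per library, Idh1-R132H left of Idh1-WT. The orange squares of Idh1-R132H 2 lie above all other points in each group, and the red circles of Idh1-R132H 1 lie lowest in 8 of 9 groups.

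Summed over the 9 groups, Cebpb came to 228 UMIs in Idh1-R132H 1 (6.75 CPM, 95% Poisson interval 5.90 to 7.68) and 1024 UMIs in Idh1-R132H 2 (28.0 CPM, 26.3 to 29.8). The Idh1-WT libraries had 426 UMIs in Idh1-WT 1 (11.2 CPM, 10.1 to 12.3) and 285 UMIs in Idh1-WT 2 (10.4 CPM, 9.27 to 11.7). These intervals cover counting error only, and those of the 2 Idh1-R132H libraries do not meet each other or those of Idh1-WT. Cebpa came to 55.2 and 55.5 CPM in Idh1-R132H 1 and 2 against 52.6 and 54.3 CPM in Idh1-WT 1 and 2 over the same cells, with intervals that overlap. Cebpe did part, with 104 CPM (101 to 107) and 112 CPM (109 to 116) in Idh1-R132H 1 and 2 against 116 CPM (113 to 120) and 144 CPM (140 to 149) in Idh1-WT 1 and 2. The intervals of the 2 Idh1-R132H libraries do not meet there either, and that of Idh1-WT 2 meets no other. Its level differs widely between the groups summed, so that sum also moves with their sizes, and by group Idh1-R132H 2 was at 0.84 to 1.35 times Idh1-R132H 1 for Cebpe. Over the groups the same ratio ran from 0.47 to 1.22 for Cebpg and from 0.61 to 1.07 for Cebpz.

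The gap was also rare among genes. Of 7494 genes with at least 1000 UMIs over the 9 groups, 1 was more than 1.5 times below the joint level of the other 3 libraries in Idh1-R132H 1 in all 9 groups, and it was Cebpb. That joint level includes the high Idh1-R132H 2, and against the Idh1-WT libraries alone the difference was smaller, as in monocyte-committed progenitor-like cells above. Cebpb was also 1 of 3 genes more than 1.5 times above the joint level of the other 3 libraries in Idh1-R132H 2 in all 9 groups, with Xlr and the Y-linked Eif2s3y. By the same rule 2 genes were lower in Idh1-R132H 2. Idh1-WT 1 had 2 higher and 4 lower, and Idh1-WT 2 had 1 higher and 2 lower, so such genes occurred in both genotypes. Cebpb in Idh1-R132H 2 was at a median of 2.99 times the joint level of the other 3 libraries. Tmem189, which overlaps the 5′ end of Cebpb, had 11.1 and 13.7 CPM in Idh1-R132H 1 and 2, against 10.9 and 12.3 CPM in Idh1-WT 1 and 2, and Fos, an early response gene, had 154 and 162 CPM in Idh1-R132H 1 and 2 against 179 and 175 CPM in Idh1-WT 1 and 2. This gap was singled out after its values were seen, and its source was not tested.

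The genotype test on Cebpb therefore rests on single libraries. Its log2 fold change was above 0 in 9 of 9 groups, from 0.21 to 1.00, with none called and a smallest adjusted p of 0.869 by edgeR. Without Idh1-R132H 1 it was called higher in 5 groups, among them neutrophil-committed progenitor-like cells at 1.50 ± 0.18 (adjusted p = 1.15e-13) and monocyte-like cells at 1.48 ± 0.19 (adjusted p = 2.54e-12). Without Idh1-R132H 2 the same groups gave -0.57 ± 0.25 and -0.88 ± 0.29, with adjusted p values of 0.58 and 0.225, and all 9 groups were below 0. The remaining Idh1-R132H library is assumed in these fits to vary like the Idh1-WT libraries.

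Whether the genotype effect on a member changed from a group to the next was tested with a genotype by group term in edgeR, with the library as a block. Of 40 such differences over 8 adjacent pairs, 0 passed, 1 had an unadjusted p under 0.05 and the smallest adjusted p was 0.831. That 1 was Cebpb between granulocyte-monocyte and monocyte-committed progenitor-like cells, at 0.68 ± 0.28 on the log2 scale (unadjusted p = 0.0171). For Cebpe the term was -0.16 ± 0.10 from granulocyte-monocyte to neutrophil-committed progenitor-like cells and 0.08 ± 0.08 from there to Chil3-led immature neutrophil-like cells. The genotype effects on Cebpe in neighbouring groups are therefore not shown to differ.

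The genes that work with or on the family were read from 2 lists. The list of regulators and partners held 19 genes, of which 18 are features and 11 to 17 were tested per group. Across the 9 groups 0 of them rose and 1 fell, Fos in neutrophil-committed progenitor-like cells, where 0.82% of all genes tested were called. Over the 9 groups that share ran from 0.0367% to 0.82%. Fos, whose protein can pair with C/EBP zippers, had 61.9 and 64.4 CPM in Idh1-R132H 1 and 2 against 86.7 and 84.3 CPM in Idh1-WT 1 and 2, without overlap, a log2 fold change of -0.41 ± 0.07 with an adjusted p of 0.000213 by edgeR. The list's median log2 fold change in that group was -0.15, beside 0.01 for all genes tested there. In the next groups Fos had the other sign, at 0.52 ± 0.16 in Chil3-led immature neutrophil-like cells (adjusted p = 0.382) and 0.48 ± 0.13 in mature neutrophil-like cells (adjusted p = 0.221).

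Other regulators came with small unadjusted p but did not pass. Trib1, which sends C/EBPα to degradation, had 2.40 and 3.08 CPM in Idh1-R132H 1 and 2 against 6.16 and 7.51 CPM in Idh1-WT 1 and 2 in granulocyte-monocyte progenitor-like cells (adjusted p = 0.197 by edgeR). Junb in the same cells had a log2 fold change of -0.41 ± 0.11 (adjusted p = 0.214). Spi1, which encodes the PU.1 partner of C/EBPα, was at 0.11 ± 0.05 in monocyte-committed progenitor-like cells (adjusted p = 0.639).

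The list of known myeloid target genes held 18 genes, 11 of them also markers used to name cell groups, and 14 to 17 were tested per group. Across the 9 groups 1 rose and 0 fell, beside called shares of 0.0367% to 0.82% of all genes tested per group. Prtn3, the granule protease proteinase 3, rose in granulocyte-monocyte progenitor-like cells, with 4641 and 4518 CPM in Idh1-R132H 1 and 2 against 4141 and 3899 CPM in Idh1-WT 1 and 2, a log2 fold change of 0.20 ± 0.03 with an adjusted p of 0.00147 by edgeR. It is also a marker of the next group, so where the boundary between these groups falls bears on its level. The median of the list in that group was 0.11, beside 0.01 for all genes. Mpo, the myeloperoxidase gene, was at 0.08 ± 0.03 there (adjusted p = 0.399). Camp, a secondary granule gene and known Cebpe target, was at -0.09 ± 0.05 in Chil3-led and -0.11 ± 0.04 in Mmp8-led immature neutrophil-like cells (adjusted p = 0.869 and 0.806 by edgeR), and Csf3r, the G-CSF receptor gene, at 0.35 ± 0.22 and 0.36 ± 0.20.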

How the data were processed

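Per the labels, each library is 1 mouse, and the values deposited by the authors are raw UMI counts, with empty droplets still included. The submitters' processing notes name Cell Ranger 4.0.0, Seurat and the build GRCm38 (mm10), while their cell filter is not given in the sources used here. All values were whole, and GENCODE vM21 held 99.0% of the feature IDs.

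A cell needed 500 UMIs, 200 genes and no more than 10% of UMIs from mitochondrial genes. A barcode shared between libraries was dropped where it had over 10 times fewer UMIs than its richest copy, which took 329 cells from Idh1-WT 1. Scrublet called few doublets (6, 6, 54 and 6), so the highest scores were removed at 0.8% per 1000 cells. Cells were clustered together in scanpy 1.11.5 (2000 variable genes without the C/EBP genes, 30 components, 15 neighbours, Leiden resolution 2) and named from 21 marker sets. The split of immature neutrophils by Chil3, the merged dendritic group and the Ear2 and Gngt2 cells were set after the clusters were seen, and 2 clusters with 397 cells stayed unnamed. Counts of groups with at least 20 cells in every library were summed and tested with edgeR 4.0.16 (TMM, filterByExpr, robust quasi-likelihood), with DESeq2 1.42.0 as an alternative. P-values rest on 2 libraries per genotype, each 1 host mouse per the labels.

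The members and lists were chosen with earlier results of these data known. The text names all members, each list gene that passed and a few with the smallest p, the 3 genes nearest to each member in pattern, and Idh1, Xist and Gt(ROSA)26Sor. Free RNA was read from barcodes of at most 50 UMIs and scaled by what mature B-like cells held of S100a8 and S100a9 (155 to 166 UMIs per cell). The test was checked on simulated counts. Alternatives varied the cell filters, doublet removal, clustering, cell-by-cell naming, free RNA, cell numbers, Xist-carrying cells, scaling, the low-count filter, the tool, a block for the replicate number, and leaving out each library. Keeping the copies and leaving out clusters led by Abhd2 and Rpgrip1 were added after seeing the data.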

Additional observations from a re-analysis of the deposited data

How the results depend on the processing

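The 45 member tests gave 0 calls under all planned and added alternatives except these: 1 without a filter on low counts (Cebpe in neutrophil-committed progenitor-like cells) and 0 to 6 when a library was left out. Of 836 alternative fold changes of members, 95 changed sign, each within 1 standard error of 0 in at least 1 of the 2 fits, and 8 became called. The adjacent-group differences gave 0 calls in each fit run, which did not include DESeq2, the replicate block or the unfiltered counts. The listed partners and targets, 2 calls as reported, gave 4 at Leiden resolution 1, 7 in Xist-carrying cells, 4 with shared-barcode copies kept, 6 without a filter, 6 with the replicate block, 0 with DESeq2 and 7 to 24 with a library left out. The cause was not tested. With all cells kept regardless of doublet score, 3 of 5 members had the same highest group, because the granulocyte-monocyte progenitor-like group was not found and Cebpz was higher in multipotent progenitor-like cells. Cebpz was also highest in multipotent progenitor-like cells at Leiden resolution 1, at 98.3 CPM against 96.8 CPM in stem cell-like cells. With markers applied cell by cell the same held, at 98.5 against 97.4 CPM.

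Replicate numbers are not stated to pair mice. Same-numbered libraries had correlations of their deviations between -0.17 and 0.03 over the groups, and the replicate block changed no member's call. Calls over all genes ran from 1 to 196 in stem cell-like (9 as reported), 1 to 82 in multipotent progenitor-like (4), 6 to 103 in granulocyte-monocyte progenitor-like (26), 15 to 145 in neutrophil-committed progenitor-like (83), 2 to 22 in Chil3-led (11) and 0 to 22 in Mmp8-led immature neutrophil-like (10), 0 to 19 in mature neutrophil-like (10), 1 to 146 in monocyte-committed progenitor-like (9) and 4 to 52 in monocyte-like cells (39). Depth limits Cebpa, Cebpg and Cebpz in the 3 later neutrophil groups, where each had 45 to 133 UMIs over 4 libraries.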

Other observations

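Within the named groups, single clusters differed in their C/EBP genes, though the clusters were chosen on other genes and these levels carry no test. In the basophil or mast progenitor-like group, 36 cells led by Prss34 and Mcpt8, proteases of basophils and mast cells, had 524 CPM of Cebpa (423 to 588 over the libraries) and 0 Cebpe UMIs. The other 177 cells of the group, led by Prg2, an eosinophil granule protein gene, had 133 CPM of Cebpa (101 to 156) and 130 CPM of Cebpe (78.0 to 189). Among mature neutrophil-like cells, the 521 cells led by Il1b and Ccl6 had 178 CPM of Cebpb and 64.9 CPM of Cebpe, whereas the 680 cells led by Retnlg and Gm5483 had 74.5 CPM of Cebpb and 162 CPM of Cebpe. The ranges over libraries were 59.1 to 71.0 against 139 to 179 CPM for Cebpe, without overlap, and 85.3 to 307 against 42.9 to 95.9 CPM for Cebpb, with overlap. Multipotent progenitor-like cells led by Dntt and Flt3 had 27.2 CPM of Cebpa (18.8 to 34.4), against 12.2 and 16.9 CPM in the other clusters of that group.

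The highest Cebpb level of all was in 112 cells led by Gngt2 and Ear2, given no cell type name. They had 159 and 503 CPM in Idh1-R132H 1 and 2, against 272 and 170 CPM in Idh1-WT 1 and 2, from 109 UMIs in all. Here too Idh1-R132H 2 was the highest library and Idh1-R132H 1 the lowest. Idh1-WT 2 held 15 of these cells, too few for the genotype test.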
